A study of Mus musculus with 9 samples.

Results

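Non-image-forming opsins are the members of the opsin family that bind retinal without serving as the visual pigments of rods and cones. All array probes, other than control probes, whose gene name in the files is Rgr, Rrh, Opn3, Opn4 or Opn5 were taken, which gave 7 probes of 5 genes out of 39429 probes and 31829 gene names. Rgr and Rrh have 2 probes each and the other genes have 1. RNA of 3 tissues, choroid (CH), retinal pigment epithelium (RPE) and photoreceptors (PR), was read on 9 dual-colour Agilent mouse arrays, 3 for each tissue. Each sample was cut by laser from the cryosections of 1 whole eye of a healthy female C57BL/6 mouse (substrain C57BL/6JOlaHsd by the paper), with 3 eyes per tissue, and no animal carried a transgene or received a treatment. The mice were 6 months old within 2 weeks by the sample labels and 5 months old by the paper. The RPE was taken away before the choroid was cut, and the photoreceptors were found by Cresyl Violet staining. The amplified tissue RNA was labelled with Cy5 and set against one RPE/choroid reference RNA labelled with Cy3, with the same dyes on all arrays. A positive log2(Cy5/Cy3) is therefore a signal above that reference at the probe. Without swapped dyes its sign may hold a bias of the probe or dye, so tissues are compared by differences between arrays. The study set the RPE against each of its neighbours to find genes typical of the RPE, and CH against PR is the remaining pair on the same arrays.

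Opsins are receptors with 7 transmembrane helices that hold a retinal chromophore and couple to G proteins. Light turns 11-cis retinal into all-trans retinal, which the visual cycle of the RPE and photoreceptors turns back. RGR, the product of Rgr, binds all-trans retinal in the RPE and Muller glia and works as a photoisomerase that makes the 11-cis form in light. Peropsin, the product of Rrh, is an RPE opsin of the apical microvilli with a preference for all-trans retinal and no settled role. Encephalopsin (Opn3) is found in brain and many other tissues. Melanopsin (Opn4) is the pigment of the intrinsically photosensitive retinal ganglion cells, which set the circadian clock and the pupil. Neuropsin (Opn5) is an ultraviolet-sensitive opsin of some retinal ganglion cells and other tissues.

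Rgr and Rrh had the largest differences between tissues, so the sequences shown are from these genes. The window of 250 bases before the RefSeq start of each gene (GRCm38.p6, minus strand) is given because both genes peaked in the RPE. The Rgr window lies at chr14:37049015-37049264 and the Rrh window at chr3:129822506-129822755. A match to the homeodomain motif TAATCC (or GGATTA on the other strand), a sequence bound by OTX and CRX factors, is in capitals.
Rgr: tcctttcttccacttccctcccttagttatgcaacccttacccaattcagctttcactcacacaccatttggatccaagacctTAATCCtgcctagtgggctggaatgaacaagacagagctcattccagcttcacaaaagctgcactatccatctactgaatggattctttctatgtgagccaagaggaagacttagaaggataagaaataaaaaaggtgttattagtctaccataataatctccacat
Rrh: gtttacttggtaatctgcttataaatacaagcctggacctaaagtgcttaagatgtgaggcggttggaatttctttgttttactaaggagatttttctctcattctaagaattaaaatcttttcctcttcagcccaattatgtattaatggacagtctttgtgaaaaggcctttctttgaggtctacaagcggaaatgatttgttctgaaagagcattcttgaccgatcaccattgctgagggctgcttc
The Rgr match begins 167 bases before the start and ends 162 bases before it. The Rrh window and the windows of Opn3 and Opn4 hold no TAATCC. The E-box CACGTG, a site bound by basic helix-loop-helix factors such as MITF, is in none of these 4 windows. The longer M-box TCATGTG, and what it reads on the other strand, CACATGA, are in none of them either. Of 32851 promoter windows of this length, 6.25% hold the homeodomain motif, 6.02% the E-box and 3.25% the M-box on either strand.

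Probe positions are those of the files, on mm9, and all 7 probes lie on the minus strand. The Rgr probes are A_55_P2095673 (ENSMUST00000022338, chr14:37848099-37848158) and A_51_P139985 (NM_021340, chr14:37850828-37850887), which is 2670 bases further towards the start of the gene. The Rrh probes are A_55_P2071334 (NM_009102, chr3:129511519-129511578) and A_66_P103975 (NM_009102, chr3:129516222-129518491). The latter is a probe of 60 bases whose genome span is 2270 bases, so it crosses an intron and reads spliced Rrh RNA. It is shown because the level of Rrh against the reference depends on which probe is read.
Rrh A_66_P103975: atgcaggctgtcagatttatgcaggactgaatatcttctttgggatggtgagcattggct
The other probes are A_52_P215176 of Opn3 (NM_010098, chr1:177592823-177592882), A_55_P2061879 of Opn4 (NM_013887, chr14:35406140-35406199) and A_51_P348792 of Opn5 (NM_181753, chr17:42694403-42694462).

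Per array, the median Cy5 signal ran from 617 to 1534. On RPE replicate 2, 91.6% of probes were well above background in Cy5, against 62.0% to 71.2% on the other arrays. RPE replicate 2 therefore stood apart, and values that rest on it are named as such. PR replicates 1 and 3 were alone on slide 1, and slide 3 held replicate 2 of each tissue. Slide 2 held the other RPE and CH arrays, so tissue and slide are partly confounded in comparisons with the PR. The labelled tissues were checked against marker lists. All 10 rod markers were called lower in RPE than PR. Of 10 RPE markers, 8 were called for the RPE over the CH and 8 over the PR, not all the same, since Otx2 was called over the CH alone and Stra6 over the PR alone. All 6 fibroblast markers were called lower in RPE than CH, at a median of -2.41. Endothelial markers did not separate these tissues, with 0 of 7 called in the limma fit (0 of 8 probes at an unadjusted p below 0.05) and a median of 0.06. Their mean log2 ratio was 1.11, 1.15 and 1.07 on the RPE arrays and 1.54, 1.09 and 0.76 on the CH arrays. RPE markers were measured in the CH too: their mean log2 ratio was 0.35, 0.28 and 1.02 on CH replicates 1, 2 and 3, against 1.94, 2.24 and 1.71 in the RPE and values from -2.97 to -2.80 in the PR. CH replicate 3 thus had the highest level of RPE markers among the CH samples, and 9 of the 10 RPE markers were well above background on all CH arrays. In dissected tissue, fewer cells of a type and less RNA per cell cannot be told apart.

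Rgr peaked in the RPE and was by far at its lowest in the PR. At probe A_55_P2095673 the log2 ratio was 3.08, 3.07 and 2.86 on RPE replicates 1, 2 and 3. On the CH arrays it was 0.80, 0.72 and 2.56, and on the PR arrays -4.92, -5.55 and -5.27. The 3 RPE values lay close together and the PR values far below the reference, while CH replicate 3 was near the RPE and away from the other 2 CH samples. The RPE mean was 3.00 ± 0.12 (SD, n = 3), the CH mean 1.36 ± 1.04 (SD, n = 3) and the PR mean -5.25 ± 0.32 (SD, n = 3). The groups did not overlap in any pair of tissues. This probe was not saturated and was well above background on all 9 arrays. Its net Cy5 signal ran from 3901 to 10580 in the PR and from 278600 to 579100 elsewhere.

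A call needed a fold change (FC) above 2.5 and an adjusted p-value below 0.01 in the limma fit over all probes. Rgr passed both thresholds at this probe in the RPE over the PR, at a log2 difference of 8.25 (SE 0.42, adjusted p = 1.67e-07), which is 305-fold. It also passed in the CH over the PR, at 6.61 (SE 0.42, adjusted p = 5.49e-07), or 97.6-fold. With the Cy5 channel alone these differences were 5.85 and 5.13, and in the authors' series table they were 5.59 and 4.93, all of which passed. Between the RPE and the CH the difference was 1.64 with a 95% interval from 0.71 to 2.58, and its adjusted p of 0.0193 missed the threshold. The study, with these arrays and thresholds, lists Rgr at this transcript among its mouse RPE signature genes, at a larger fold over the CH. Its semi-quantitative RT-PCR also had Rgr highest in the RPE. The call over the CH was thus not reproduced here, and the reason was not tested. Within slide 2 (2 arrays of each tissue) the difference between RPE and CH was 1.29. Within slide 3 (1 array of each) it was 2.34, which rests on RPE replicate 2. Without CH replicate 3 it was 2.24 (adjusted p = 0.000109, limma) and passed. That replicate also had the highest RPE marker level of the CH samples, whose part in the Rgr level was not tested. Muller glia, the other known site of RGR, had a mean marker level from -1.65 to -0.85 in the RPE, from -1.40 to -1.07 in the CH and from -1.60 to -0.65 in the PR, and their part was not tested either. With the Cy5 channel alone the difference between RPE and CH was 0.72 (adjusted p = 0.0866, limma), and with the authors' series table it was 0.66.

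The other Rgr probe, A_51_P139985, is brighter and reached the scanner's ceiling. It was saturated in Cy5 on all 3 RPE arrays and on CH replicates 1 and 3. Its log2 ratio was 2.01, 1.85 and 1.92 on the RPE arrays, 0.57, -0.27 and 1.46 on the CH arrays and -1.89, -2.62 and -2.09 on the PR arrays. The order of the tissues was as at the first probe, and again CH replicate 3 was the highest CH sample. Since the RPE level is only a lower limit here, the RPE over the PR was at least 3.77-fold higher for Rgr (adjusted p = 7.17e-06, limma). Bounds of this kind use the mean Cy5 signals after loess and Aquantile and, without swapped dyes, may hold a dye bias. The p-values beside them test the difference in log2(Cy5/Cy3), not the bound. With the Cy5 channel alone the RPE over the PR had an adjusted p of 0.000315 (limma) at this probe. No fold is given between the RPE and the CH at this probe (adjusted p = 0.0257). The probes also disagreed in unsaturated spots. On slide 3, where neither CH replicate 2 nor PR replicate 2 was saturated at either probe, the CH was above the PR by 2.35 at A_51_P139985 and by 6.28 at A_55_P2095673.

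**Figure D1:**
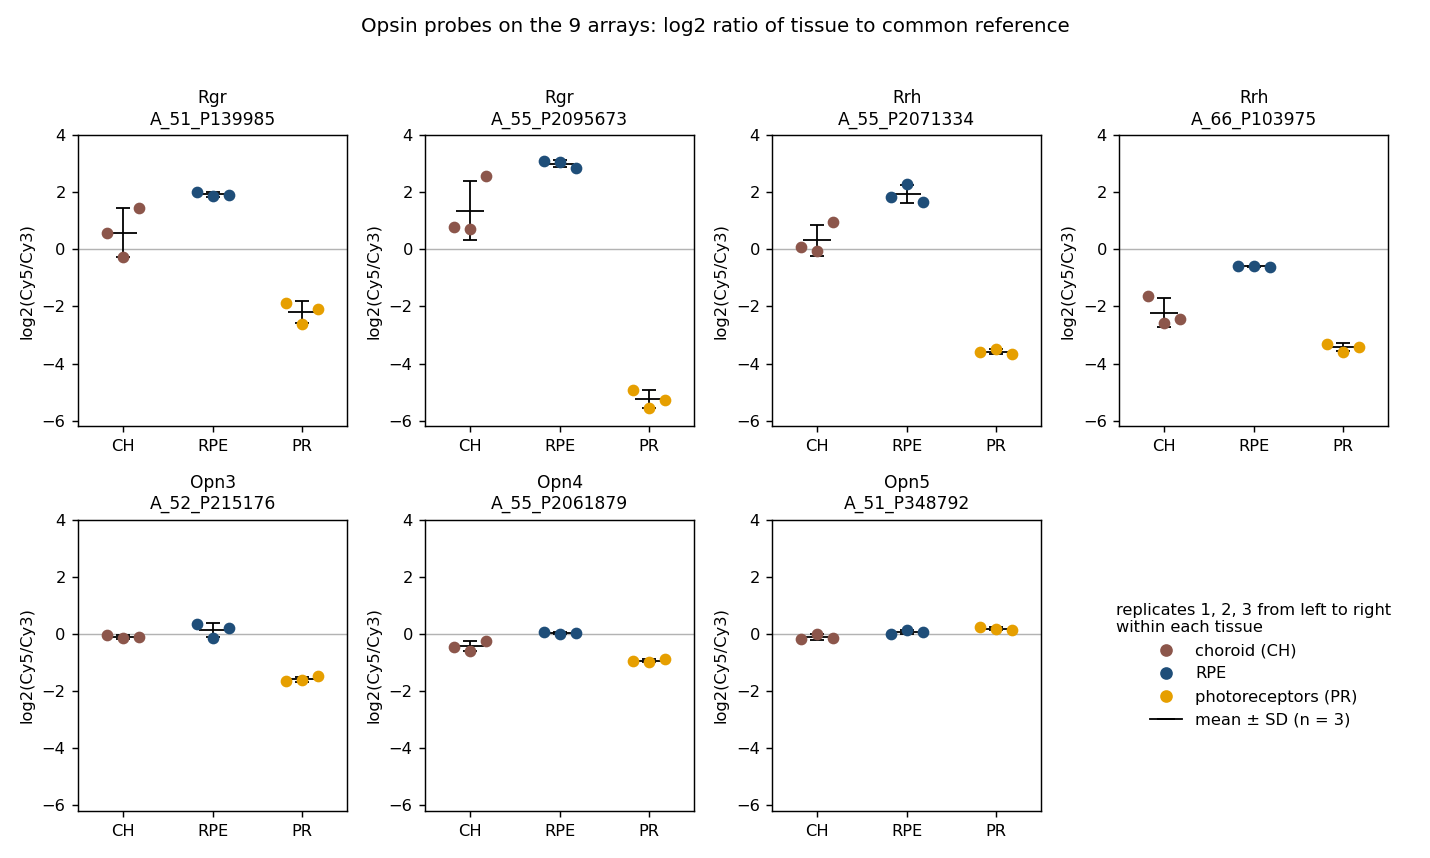
Each panel is 1 probe of a non-image-forming opsin. The vertical axis is log2(Cy5/Cy3), the tissue over the common reference, for the 3 replicates of the choroid (CH), RPE and photoreceptors (PR), with the mean and SD as black bars. Rgr and Rrh order the tissues as RPE, CH and PR from high to low, with CH replicate 3 the highest CH sample at both Rgr probes and at Rrh probe A_55_P2071334. Opn5 stays within 0.25 of the reference on every array.

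Rrh, the gene of peropsin, was called for the RPE over both other tissues at both of its probes. At A_55_P2071334 the log2 ratio was 1.83, 2.29 and 1.67 on the RPE arrays, 0.08, -0.06 and 0.95 on the CH arrays and -3.58, -3.50 and -3.66 on the PR arrays. The tissues did not overlap, and as for Rgr the highest CH sample was replicate 3. The RPE mean was 1.93 ± 0.32 (SD, n = 3), the CH mean 0.32 ± 0.55 (SD, n = 3) and the PR mean -3.58 ± 0.08 (SD, n = 3). The RPE was above the CH by 1.61 (SE 0.25, adjusted p = 0.0019, limma), or 3.06-fold, and above the PR by 5.51 (adjusted p = 8.79e-08), or 45.6-fold. The CH was above the PR by 3.90 (adjusted p = 6.34e-07). With the Cy5 channel alone the differences from the PR were 4.42 and 3.39, and in the authors' series table they were 4.46 and 3.44, all of which passed.

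At the probe that crosses an intron, A_66_P103975, every array lay below the common reference. The log2 ratio was -0.58, -0.59 and -0.62 on the RPE arrays, -1.63, -2.59 and -2.43 on the CH arrays and -3.30, -3.58 and -3.42 on the PR arrays. The 3 RPE samples were nearly equal and clear of the others, and here CH replicate 1, not replicate 3, was the highest CH sample. The RPE was above the CH by 1.62 (SE 0.21, adjusted p = 0.000887, limma), or 3.07-fold, and above the PR by 2.84 (adjusted p = 2.38e-06), or 7.16-fold. Between the CH and the PR the difference was 1.22 (adjusted p = 0.00076), which is under the FC threshold. The 2 Rrh probes thus differed by 0.006 in the comparison of RPE with CH and by 2.67 and 2.68 in the comparisons with the PR.

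No single left-out array cost Rrh its calls over the CH, and the differences then lay between 1.42 and 1.93 at A_55_P2071334 and between 1.43 and 1.91 at A_66_P103975. Within slides 2 and 3 the differences were 1.24 and 2.36 at the first probe and 1.43 and 2.00 at the second. The values of slide 3 rest on RPE replicate 2, its only RPE array. With the Cy5 channel alone A_55_P2071334 fell to 1.03 (adjusted p = 0.0204, limma), and in the authors' series table the probes had 1.02 (adjusted p = 0.0361) and 1.49 (adjusted p = 0.0101), none of which passed.

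**Figure D2:**
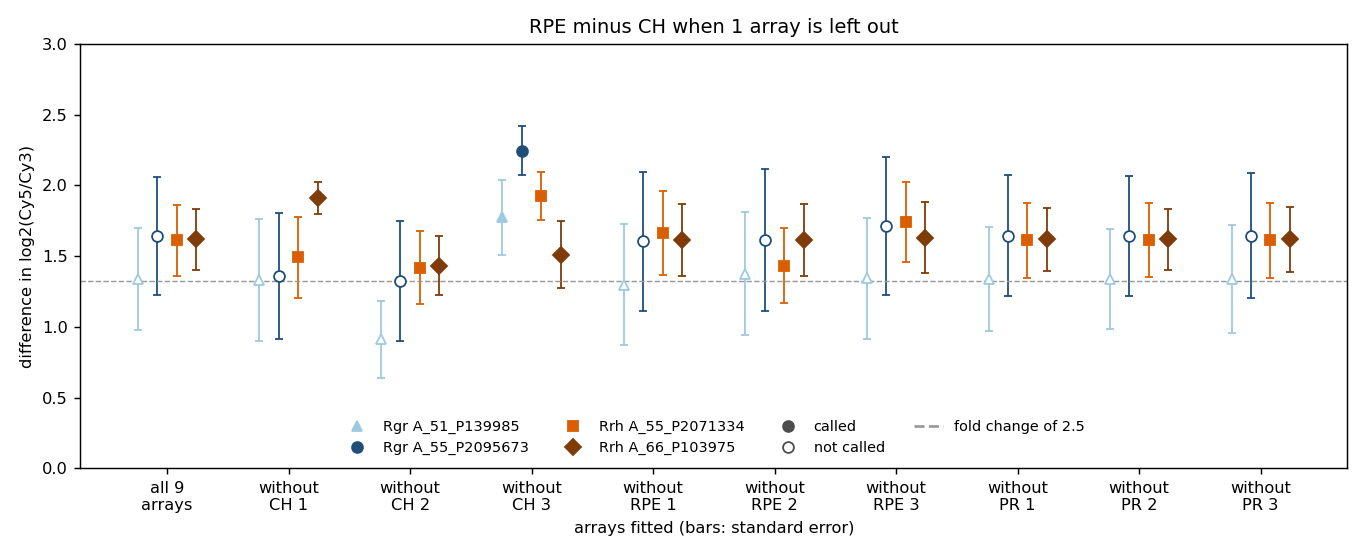
The difference between RPE and CH in log2(Cy5/Cy3) at the Rgr and Rrh probes, with all 9 arrays and with each array left out in turn. Bars are standard errors, filled symbols passed both thresholds and the dashed line is an FC of 2.5. Both Rrh probes passed in every fit, whereas the Rgr probes passed only without CH replicate 3, A_55_P2095673 at 2.24. The values of the saturated probe A_51_P139985 have no defined size.

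Opn3 was low in all tissues and lowest in the PR. Its net Cy5 signal ran from 458 to 935 in the CH and RPE, well above background on all 6 arrays, with 935 on RPE replicate 2. In the PR it ran from 89.8 to 178, well above background on none. The log2 ratio was 0.34, -0.14 and 0.20 on the RPE arrays and -0.04, -0.16 and -0.12 on the CH arrays. These ranges overlapped, and RPE replicate 2 was the low RPE sample. The PR arrays had -1.65, -1.63 and -1.49, all under the other tissues. Because the PR has only an upper limit, Opn3 in the RPE was at least 2.28-fold higher (adjusted p = 1.86e-06, limma) and in the CH at least 2.03-fold higher (adjusted p = 4.28e-06) than there. These p-values belong to the fitted differences in log2(Cy5/Cy3), 1.72 and 1.48, and not to the bounds. The fitted differences passed the thresholds, but both bounds lie under an FC of 2.5. Between the RPE and the CH the difference was 0.24 with a 95% interval from -0.04 to 0.52 (adjusted p = 0.223).

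Opn4 followed the same order of tissues with smaller steps. The log2 ratio was 0.07, 0.01 and 0.04 on the RPE arrays, -0.45, -0.61 and -0.24 on the CH arrays and -0.97, -0.97 and -0.88 on the PR arrays. No tissue overlapped another. The RPE was above the PR by 0.98 (SE 0.10, adjusted p = 2.88e-05, limma), or 1.97-fold, and above the CH by 0.47 with a 95% interval from 0.23 to 0.70 (adjusted p = 0.0107), or 1.38-fold. The CH was above the PR by 0.51 (adjusted p = 0.0021). None of these differences reached an FC of 2.5. The net Cy5 signal was dim, from 346 to 534 in the CH and RPE replicates 1 and 3, 1248 in RPE replicate 2 and from 158 to 253 in the PR, where 2 of 3 arrays were well above background. With the log ratio of the Feature Extraction software, the RPE was above the PR by 1.44 (adjusted p = 6.51e-05, limma) and passed.

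Retinal ganglion cells, which hold melanopsin, were not among the dissected tissues. Of 11 marker genes of these cells, 0 passed between the RPE and the CH in the limma fit (7 of 14 probes at an unadjusted p below 0.05). For the RPE over the PR 2 passed, Rbpms and Adcyap1, with 4 of 14 probes, beside 10.3% of all probes. The mean log2 ratio of the list ran from -1.28 to -0.70 in the RPE, from -1.52 to -1.12 in the CH and from -2.14 to -1.82 in the PR. The list mean and Opn4 were thus both lowest in the PR, but the members did not all follow the mean. Between CH and PR, 6 of 14 probes were higher in the CH at an unadjusted p below 0.05 (limma) and 1 was lower. Isl1 was higher in the PR, at -1.20 (adjusted p = 0.00243, limma). The part of these cells in the Opn4 signal was not tested.

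Opn5 was at background almost everywhere. Its net Cy5 signal ran from 32.3 to 61.2 on 8 arrays, none of them well above background. On RPE replicate 2, the array with the most probes above background, it was 688 and counted as well above background in both channels. Its log2 ratio there was 0.15, near the 0.01 and 0.07 of the other RPE samples. The CH arrays had -0.20, 0.00 and -0.14 and the PR arrays 0.25, 0.18 and 0.14. No FC is given for Opn5, since in each pair of tissues at least 1 was at background on all arrays. In the limma fit its differences were 0.19 (adjusted p = 0.188) between RPE and CH, -0.11 (adjusted p = 0.351) between RPE and PR and -0.30 (adjusted p = 0.0192) between CH and PR. These are ratios of background signals.

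**Figure D3:**
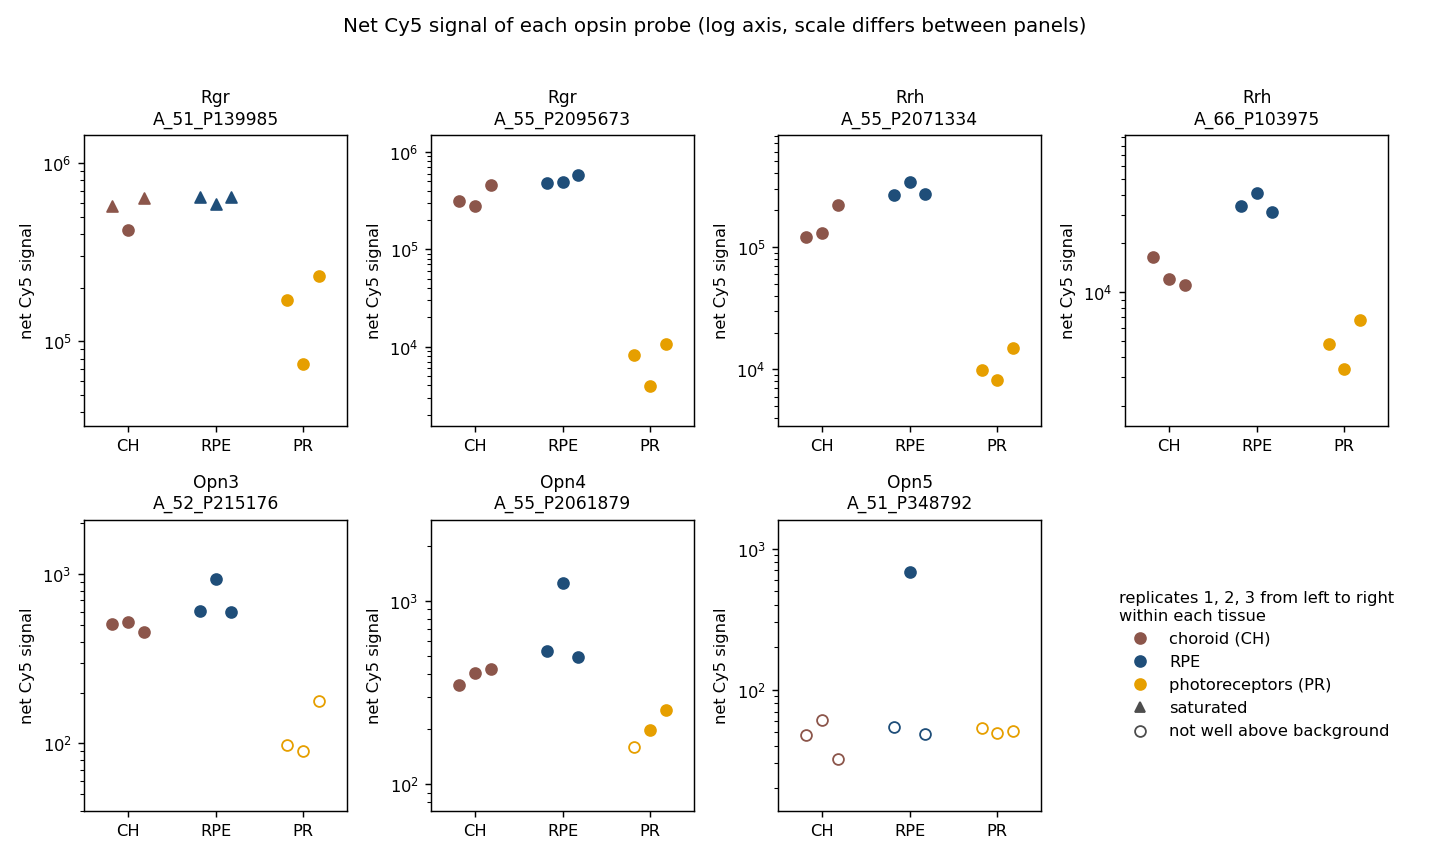
The net Cy5 signal (mean signal minus local background, log axis) of each opsin probe on the 9 arrays, with its own scale in each panel. Triangles were saturated and open circles were not well above background. The Rgr probe A_51_P139985 was saturated on all RPE arrays, Opn3 was not well above background on any PR array, and Opn5 rose out of the background on RPE replicate 2, at 688.

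Over the 7 probes, 2 were called for the RPE over the CH, both of Rrh, where 0.185% of all probes were. For the RPE over the PR 5 were called, beside 10.3% of all probes, and for the CH over the PR 4 were called, beside 12.0%. The calls over the PR include Opn3, whose bounds lie under the FC threshold, and the partly saturated Rgr probe. In the opposite direction 0 opsin probes were called in each comparison, beside 1.55%, 5.17% and 6.33% of all probes. At an unadjusted p below 0.05 in the limma fit the opsin probes in that direction were 0, 0 and 1. Of the 5 probes with neither a saturated spot nor a tissue at background, the differences between RPE and CH ran from 0.24 to 1.64 with a median of 1.61, against 0.04 over all probes. For 4 such probes they ran from 0.98 to 8.25 between RPE and PR (median 4.18) and from 0.51 to 6.61 between CH and PR (median 2.56), against -0.01 and -0.05 over all probes. The medians over all probes include dim and saturated probes, and Rrh counts with 2 probes in each of these opsin sets. All RPE arrays lay above all CH arrays at 6 probes (20.7% of all probes did) and below them at 0 (17.9%). The 6 include Opn5, at background, and the saturated Rgr probe. They lay above all PR arrays at 6 probes (28.8%) and below at 0 (29.8%). All CH arrays lay above all PR arrays at 6 probes (28.0%) and below them at 1, that of Opn5 (34.0%). The 3 comparisons share arrays pairwise, so their values are not independent of each other. The number of arrays limits the precision. The p-values rest on 1 spread per probe, shared by the tissues with 3 eyes each and moderated over all probes. At Rgr probe A_55_P2095673, whose spread was widest in the CH, the SE between RPE and PR was 0.42. With only these 2 tissues fitted it was 0.17.

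**Figure D4:**
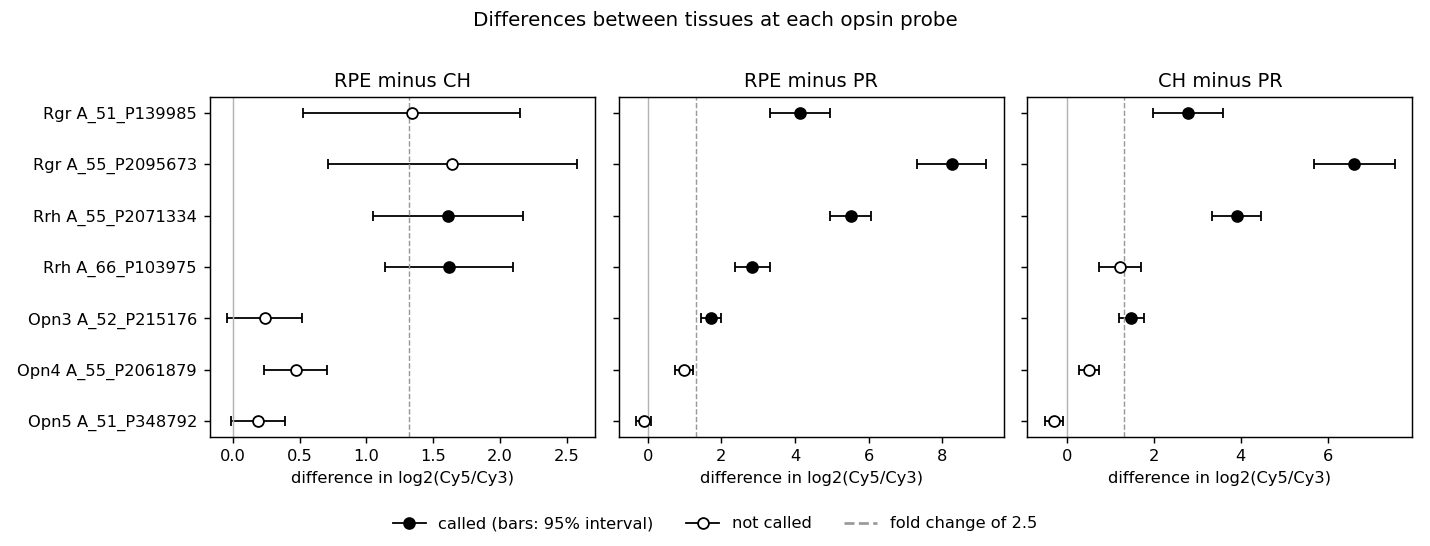
The difference in log2(Cy5/Cy3) between tissues at each opsin probe for RPE minus CH, RPE minus PR and CH minus PR, with 95% intervals. The horizontal scale differs between panels, filled circles passed an FC of 2.5 (dashed line) and an adjusted p of 0.01, and open circles did not. Against the PR the largest differences are those of the Rgr probe A_55_P2095673, at 8.25 and 6.61. The values of the saturated Rgr probe, of Opn3 against the PR and of Opn5 have only limits or none.

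The cone pigments were highest in the PR. Opn1sw and Opn1mw, the opsins of short- and middle-wavelength cones, were called lower in RPE and CH against PR at all of their probes. For Opn1sw the difference between RPE and PR was -3.14 (adjusted p = 2.81e-05, limma), and for Opn1mw, at probe A_55_P1965876, it was -3.54 (adjusted p = 2.32e-08), where Rgr had 8.25. Between RPE and CH they differed by -0.15 (adjusted p = 0.803) and 0.25 (adjusted p = 0.209) and were not called.

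RGR and peropsin bind the retinal that the visual cycle enzymes turn over, so genes of this cycle were read from the same fit. Of 22 genes with 24 probes, 6 genes (6 probes) were called for the RPE over the CH, beside 0.185% of all probes, and 0 the other way, beside 1.55%. These were Lrat, which esterifies retinol, at 1.90 (adjusted p = 0.00223), Rlbp1, the carrier of 11-cis retinoids, at 1.76 (adjusted p = 0.00316), the retinol dehydrogenases Rdh10, at 1.99, and Rdh5, the isomerohydrolase Rpe65 (adjusted p = 0.00023) and Ttr, a retinol transport protein. The opsins had 1.61 and 1.62 for Rrh and 1.64, without a call, for Rgr, and no difference between these genes was tested. The probes of Rpe65, Rdh5 and Ttr were saturated on all RPE arrays, so no size is given for them. Lrat was saturated on 1 of the 3 RPE arrays. Against the PR, 11 of the 22 genes (11 of 24 probes) were called for the RPE, beside 10.3% of all probes. Among them were Lrat at 7.35, Rdh10 at 6.15 and Rlbp1 at 5.35. In the other direction, 3 genes (3 probes) were lower, beside 5.17% of all probes. Rdh12 was at -2.61 and Rbp3 at -2.44, both known from photoreceptors and the matrix around them. Abca4, the flippase of outer segments, was at -1.65. The median of the 24 probes was 0.63 between RPE and CH and 0.76 between RPE and PR.

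Genes through which opsins signal were not called between the RPE and the CH. Of 16 G protein alpha subunits 0 passed in the limma fit, where at an unadjusted p below 0.05 6 of 24 probes were higher and 6 lower. Of 15 genes of the melanopsin cascade 0 passed, where at that unadjusted p 4 of 24 probes were higher in the RPE and 12 higher in the CH. Against the PR, 10.3% of all probes were called higher in the RPE and 5.17% lower. Of the alpha subunits, 6 were called higher (6 of 24 probes) and 5 lower (5 of 24), Gnas among both. Among the higher were Gnai1 at 3.14 and Gnai2 at 2.24, inhibitory subunits that lower cyclic AMP. The transducins of rods and cones, Gnat1 and Gnat2, were called lower, Gnat2 at -3.42 and Gnat1 with saturation on all PR arrays, as were Gnaz at -2.14 and Gnat3 at -2.02. Gnas, the stimulatory subunit, had 1 probe higher at 2.51, saturated on 1 RPE array, and 1 lower at -1.36. Gnaq, Gna11 and Gna14, the subunits through which melanopsin activates phospholipase C, reached 0.94, 1.30 and 1.16 in the RPE over the PR and were not called, but were called in the CH over the PR at 1.44, 1.50 and 1.74. Of the 15 cascade genes, 5 were called for the RPE over the PR (6 of 24 probes). Plcb3, a phospholipase C, was at 2.48, Plcb1, another one, at 1.35, and the shutoff genes Arrb1 and Adrbk2 at 2.33 and between 1.43 and 1.69. Trpc6, a cation channel, was the fifth, with no size given since it was not well above background on any PR array. Trpc7, a channel of melanopsin cells, was not well above background on all arrays of any tissue at either probe.

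The genes next to Rgr and Rrh were read by position on mm9, within 100000 bases of an opsin probe. Near Rgr lie 5 other genes with 6 probes, of which in the limma fit 0 passed between RPE and CH (5 at an unadjusted p below 0.05, all higher). Between RPE and PR 3 of these probes passed, all lower, where 5.17% of all probes were called lower and 10.3% higher. Lrit1 and Lrit2, leucine-rich repeat proteins of the retina, were at -3.99 and -2.71, at 27157 and 35118 bases from Rgr. Pcdh21, a cadherin of photoreceptor outer segments, was at -3.16 and 40500 bases away. Near Rrh lie 6 other genes with 6 probes, of which 0 passed between RPE and CH in the limma fit and 2 had an unadjusted p below 0.05. The third Lrit gene, Lrit3, lies 20134 bases from Rrh and was lower in RPE than PR at -1.67, while Pla2g12a and Casp6, 79278 and 97962 bases away, were higher at 1.37 and 1.96. Rgr and Rrh were therefore each higher in the RPE beside a Lrit gene that was higher in the PR. Around Opn3, Opn4 and Opn5 0 of the 15 probes passed in either limma comparison of the RPE (3 against the CH and 5 against the PR at an unadjusted p below 0.05), and 1 probe, of Chml near Opn3, was called for the CH over the PR at 1.39.

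**Figure D5:**
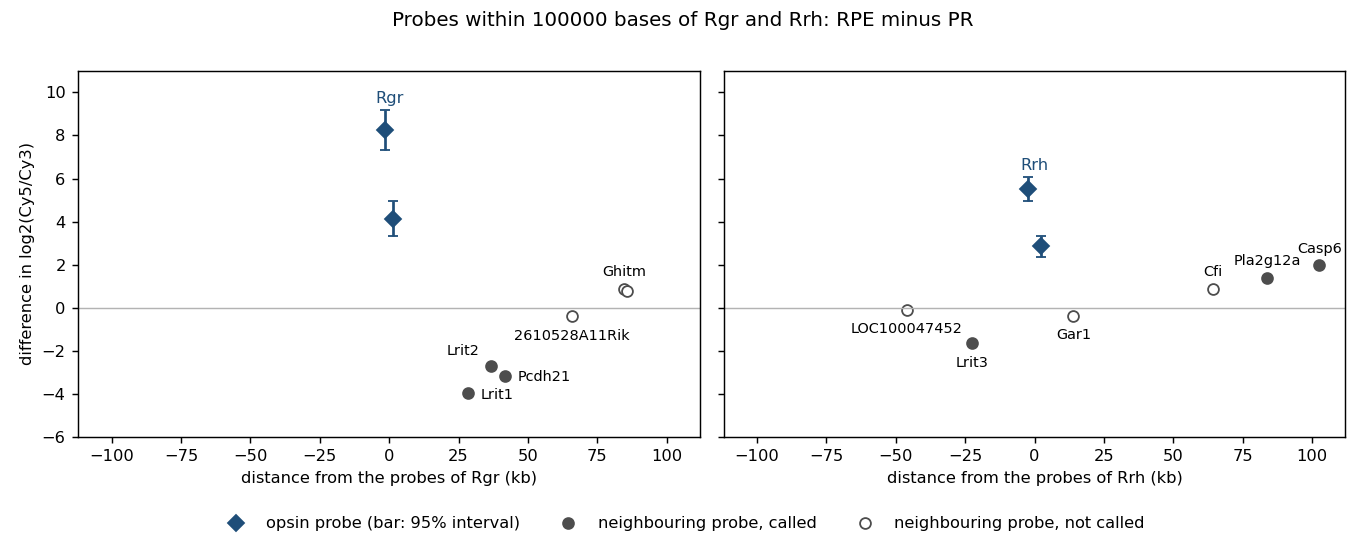
The difference between RPE and PR in log2(Cy5/Cy3) of the Rgr and Rrh probes (diamonds with 95% intervals) and of other probes within 100000 bases, against the distance in kilobases along mm9. Filled circles were called. Both opsins lie far above 0 and the nearby Lrit genes below 0, Lrit1 at -3.99 and Lrit3 at -1.67.

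The genes whose pattern over the 9 arrays was most like an opsin's were found by the root mean square (RMS) difference of the centred log2 ratios, among probes that were well above background on all arrays of a tissue and not saturated throughout one. For Rgr (A_55_P2095673) these included Sema3c, a secreted semaphorin, at an RMS of 0.33 (Pearson r = 0.999 over 9 arrays) and Tmem56, at 0.53. For Rrh (A_55_P2071334) they were the transporters Slc6a13 at 0.12, Slc7a10 at 0.19 and Slco1c1 at 0.20, which carry GABA and taurine, small neutral amino acids, and thyroid hormone. Slc6a13 had mean log2 ratios of 2.52 in the RPE, 1.03 in the CH and -3.08 in the PR. For Opn3 the nearest were LOC100048260 at 0.08, Reep5 at 0.12 and Tmem104 at 0.12, and for Opn4 Tmem30a at 0.07, Mrps7 at 0.08 and Xpr1 at 0.08. Opn5, at background, was not matched. These correlations are between 0.983 and 0.999, and the points share their 3 tissues, so they describe the order of tissues more than single samples.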

How the data were processed

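The authors deposited Agilent Feature Extraction (version 9.5.3.1 in the submitters' processing notes) output for 9 arrays. Its mean signals and local backgrounds, deposited intensity values as scanned, were the starting point. The deposited log10 ratio of the software and the authors' series table of log2 values, which follows log2 Cy5 (r between 0.985 and 0.999 per array) with its normalization not given in the sources used here, served as alternatives. Of 44397 spots, 43020 are not controls. The background step was normexp at an offset of 50, followed by loess on log2(Cy5/Cy3) within arrays. The software's outlier mark removed between 228 and 586 spots per array, and spots of a probe were averaged. A limma model (version 3.58.1, R 4.3.3) gave the tissue means, with Benjamini-Hochberg adjustment over 39429 probes. Python 3.11.15, pandas 2.3.3 and matplotlib 3.10.9 made counts and figures. On simulated arrays of 38847 probes, 92 of 100 probes with a log2 difference of 2 between RPE and CH were called, and 0 unchanged ones. The simulated noise was independent between arrays and nearly all probes were unchanged, unlike in these data. Smaller differences, such as those of Rgr and Rrh between RPE and CH, were not simulated.

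The opsins and gene lists were chosen with earlier results of these data known. Genes named are the opsins, genes of the lists, neighbours within 100000 bases and the 3 genes most alike to each opsin. Some genes that this choice named are not reported here. Beside the lists in the report there were marker lists of pigment cells, cones, and bipolar and amacrine cells. Between RPE and CH, 4 of 7 pigment cell genes were lower and 1 of 8 Muller glia genes was lower. Of the cone, bipolar and amacrine, and endothelium lists 0 genes were called by limma (7 cone, 7 bipolar and amacrine and 0 endothelium probes at an unadjusted p below 0.05). Between RPE and PR, 7 pigment cell, 2 Muller glia, 2 bipolar and amacrine and 6 of 7 endothelium genes were higher, and 9 cone, 1 Muller glia and 2 bipolar and amacrine genes were lower. Of all probes, 10.3% were called higher there and 5.17% lower. Promoter windows came from RefSeq (GRCm38.p6), which held 4 of the 5 opsins. Alternatives covered background correction, normalization, channel, arrays fitted, blocks, marked, saturated and dim spots, several probes per gene, variance model, thresholds and left-out arrays.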

Additional observations from a re-analysis of the deposited data

How the results depend on the processing

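The 21 opsin differences were recomputed under 24 alternatives, which gave 497 values, of which 483 kept their direction and their side of the thresholds, 5 lost a call, 6 gained one and 3 turned sign. The Aquantile alternative leaves log2(Cy5/Cy3) as it is, so its values had to equal the main ones. With probes of a gene averaged, the gene value of Rgr and of Rrh was counted for each of its probes. The count of 483 therefore overstates how often the result was put to a test. The 3 that turned were all Opn5 between RPE and PR, at background, with 0.097 from the Feature Extraction log ratio, 0.075 from the Cy5 channel alone and 0.011 from the series table. The number of opsin probes called in the RPE over the CH, 2, became 1 with the Cy5 channel alone, 0 with the series table and 4 at an adjusted p below 0.05. With probes of a gene averaged, 1 of 5 genes was called in the RPE over the CH and 3 of 5 in the RPE over the PR. The 2 and 5 probes called in the main fit also belong to 1 and 3 genes, so only the unit of counting changed there. With single arrays left out the counts lay between 2 and 4 in the RPE over the CH (4 without CH replicate 3), at 5 in the RPE over the PR and between 4 and 5 in the CH over the PR. The cause of these changes was not tested. In the CH over the PR, Opn3 lost its call with the Cy5 channel alone (1.24) and Rgr probe A_51_P139985 with the series table (1.09), and Rrh probe A_66_P103975 passed without CH replicate 2 (1.41), without CH replicate 3 (1.33) and with probes averaged. Rgr probe A_51_P139985 has no value in the RPE with saturated spots left out or in the series table.

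Over all probes, the 685 calls between RPE and CH (73 higher and 612 lower in the RPE) became 1183 with median centring (13 and 1170), 405 with the series table and 1708 at an FC above 2. With the Feature Extraction log ratio the calls between RPE and PR were 4240 higher and 3573 lower, against 4062 and 2039, and those between CH and PR 4964 and 4367, against 4751 and 2496. Whether the replicate numbers pair the samples cannot be settled here. The correlation of deviations from the tissue means ran from -0.077 to 0.288 between arrays of the same number. Between arrays of different numbers it ran from -0.31 to 0.246, and the arrays of replicate 2 share slide 3. With the replicate number as a block, 2, 5 and 4 opsin probes were called, as without it. With the slide as a block they were also 2, 5 and 4. Slide 1 held PR arrays alone, so this fit compares the PR with the other tissues only through slide 3, with 1 array of each, for the RPE replicate 2. It therefore cannot separate slide from tissue well in the comparisons with the PR. The dim signals of Opn3, Opn4 and Opn5 limit what can be said of them in the PR.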
